A study of Mus musculus with 4 samples.

Results

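The genes described here encode the subunits of the BAF chromatin remodelling complex and other regulators of chromatin and of transcription that act in brown fat. They were chosen by symbol from a fixed list of 47 genes, of which 45 were measured among the 12165 genes of the deposited table. The measured genes comprise 22 of 22 listed BAF subunits and 23 of 25 other regulators, and Crebbp and Tet1 were not analysed here. Polyadenylated RNA was read from brown adipose tissue of Ebf2 KO mice (2 libraries) and of wild-type (WT) mice (2 libraries). Both genotypes were of mixed strain, 8 weeks old, fed chow and housed at room temperature, and the labels do not name the fat depot. The labels give neither the deleted part of Ebf2, the sex of the mice, nor whether a library stands for a single animal, so p-values measure the spread between these libraries, which may be technical. A whole-body or a cell-restricted deletion is likewise not told apart by the labels.

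BAF complexes use the energy of ATP to slide or eject nucleosomes, and they thereby open enhancers and promoters to transcription factors. Each complex holds a single ATPase, SMARCA4 (BRG1) or SMARCA2 (BRM), core subunits, and subunits that define the canonical BAF, PBAF or non-canonical BAF assembly. EBF2 is a transcription factor of brown fat cells and their precursors that marks brown fat genes for activation, and the histone methyltransferase EHMT1, the demethylase KDM1A (LSD1), the Mediator subunit MED1 and the corepressors CTBP1 and CTBP2 are known partners of the brown fat regulator PRDM16. Because these proteins act in most cell types, the RNA of a bulk tissue cannot tell fewer cells of a type from less RNA per cell.

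Levels are in RPKM, which divides the reads of a gene by its length and by the library total, so they can be compared between genes. The library totals lay between 162782640 and 199678916 reads, and every member held between 396 and 14697 reads in each library, so that counting error alone came to at most 5.03% of a value. Ebf2 stood at 0.391 and 0.352 RPKM in the Ebf2 KO libraries and at 2.97 and 2.63 RPKM in the WT libraries, so both Ebf2 KO libraries lay below both WT libraries. The brown fat markers were also low: 8 of them, with Ucp1 among them, summed to 964.2 and 372.7 RPKM in the Ebf2 KO libraries, against 11330 and 12214 RPKM in the WT libraries. Xist, made only from an inactive X chromosome, was at 5.49 and 0.0353 RPKM in Ebf2 KO replicates 1 and 2 and at 5.05 and 6.19 RPKM in WT replicates 1 and 2, so Ebf2 KO replicate 2 stood apart from the other libraries.

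All members were expressed, at levels about those of the median gene. Mean RPKM over the 4 libraries ran from 1.25 for Tet2 to 27.02 for Ctbp1, with a median of 6.78 over the BAF subunits, 2.37 over the other regulators and 4.15 over all genes. The BAF subunits with the highest levels were Bcl7c, Smarcb1, Phf10, Bcl7b and Smarce1, whereas the coactivators, the Polycomb methyltransferases and the DNA methylation enzymes each averaged under 5 RPKM.

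**Figure D1:**
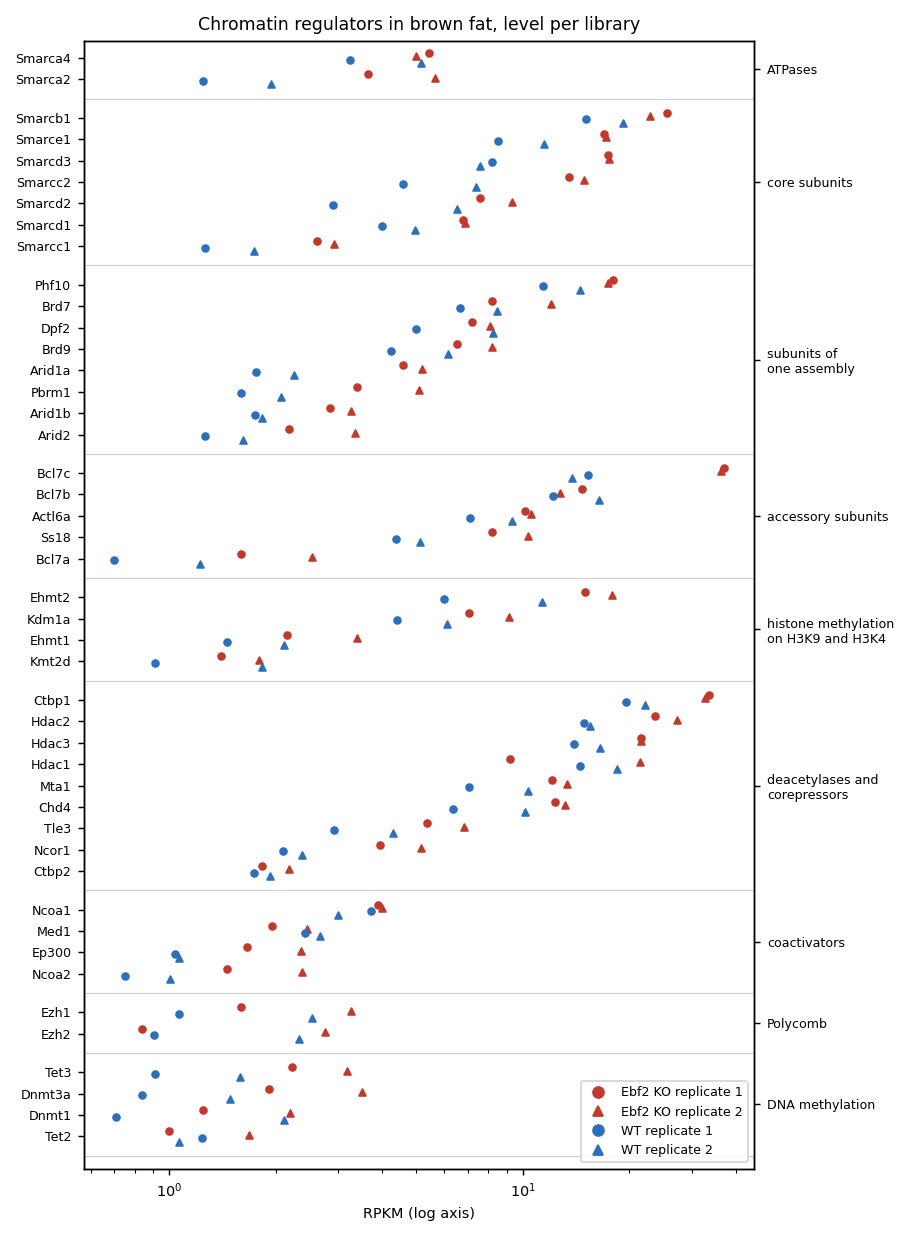
RPKM of the 45 measured members in each library, on a log axis, grouped by role with the highest mean at the top of each group; circles are replicate 1 and triangles replicate 2, in red for Ebf2 KO and blue for WT. Most red points lie to the right of the blue points by a small step, Bcl7c is among the genes with a clear gap (37.0 and 36.5 RPKM against 15.3 and 13.8 RPKM), and Ezh1 and Ezh2 separate by replicate number instead of genotype.

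How far these genes differed between genotypes turned on the scale. On RPKM most measured genes were higher in Ebf2 KO. Over the 12165 genes the median of the log2 fold changes was 0.45 on the log2(RPKM + 1) scale. Adding 1 keeps low values stable and understates the change of low genes. The median over the members was 0.54, with 0.61 over BAF subunits and 0.52 over the other regulators. RPKM divides by all reads of a library, and the share of reads falling in the 12165 genes differed by genotype. This share was 59.0% and 61.7% for Ebf2 KO replicates 1 and 2. For WT replicates 1 and 2 it was 43.2% and 45.4%. The part of this difference in the higher RPKM of most genes, members among them, was not tested. Multiplying each library by a single factor, so that the median gene had the same level everywhere (median-ratio scaling), brought the medians to -0.002 over all members, 0.13 over BAF subunits, -0.03 over the other regulators and -0.006 over all genes. The median of the members thus lay close to that of all genes, and the results below are given on RPKM and after scaling.

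On RPKM, limma called 9 of 45 members higher and 0 lower in Ebf2 KO (adjusted p under 0.05, Benjamini-Hochberg over all genes), and 20 and 0 had an unadjusted p under 0.05. The same test called 24.4% of all genes higher and 3.54% lower. These shares are also the background for the counts by role below, where the groups are too small for a comparison. The 9 were 7 BAF subunits (Smarca2, Smarcc2, Smarcd3, Smarce1, Arid1a, Bcl7c and Ss18) and 2 other regulators (Hdac2 and Ctbp1). After median-ratio scaling 0 members were higher and 0 lower, where 7.72% of all genes were called higher and 7.58% lower (limma), and 4 members were higher and 3 lower at an unadjusted p under 0.05. In the authors' deposited table of edgeR values Smarca2 was the 1 member called higher and Med1 the 1 called lower at an FDR under 0.05, against 10.9% and 10.5% of all genes. The members called higher on RPKM were 20.0% of those measured, 31.8% of the BAF subunits and 8.70% of the other regulators, so the share lay on both sides of the background. The count of members on RPKM depended on single libraries, and so did the count over the whole table. A fit without 1 library leaves 1 library in a genotype and 1 residual degree of freedom. Its p-values rest mostly on the variance that limma pools over all genes. In degrees of freedom, that pool weighed 84.4 without WT replicate 1 and 61.5 without WT replicate 2. It weighed 13.3 and 11.9 without Ebf2 KO replicates 1 and 2, against 5.61 in the full fit. Calls kept or lost without a library thus also follow this weight. The shift of most genes moved as well when a library was left out. Over the 12165 genes the log2 fold changes had a median of 0.57 without WT replicate 2 and 0.35 without WT replicate 1. They had a median of 0.55 without Ebf2 KO replicate 1 and 0.36 without Ebf2 KO replicate 2. The part of this shift in the calls of members was not tested.

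The size of the changes was also limited. After scaling, 0 of 45 members had an absolute log2 fold change of at least 1, against 12.3% of all genes and 11.8% of the 8133 genes within the range of mean RPKM spanned by the members. The scaled log2 fold changes ran from -0.83 for Hdac1 to 0.64 for Bcl7c, with an SD of 0.334 over the members and 0.698 over all genes. On RPKM the groups did not overlap, with Ebf2 KO higher, in 33 members (65.4% of all genes did so), and in 0 with Ebf2 KO lower (9.3% of all genes). After scaling the groups did not overlap in 15 members with Ebf2 KO higher and in 10 with Ebf2 KO lower, where the shares of all genes were 31.2% and 31%.

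**Figure D2:**
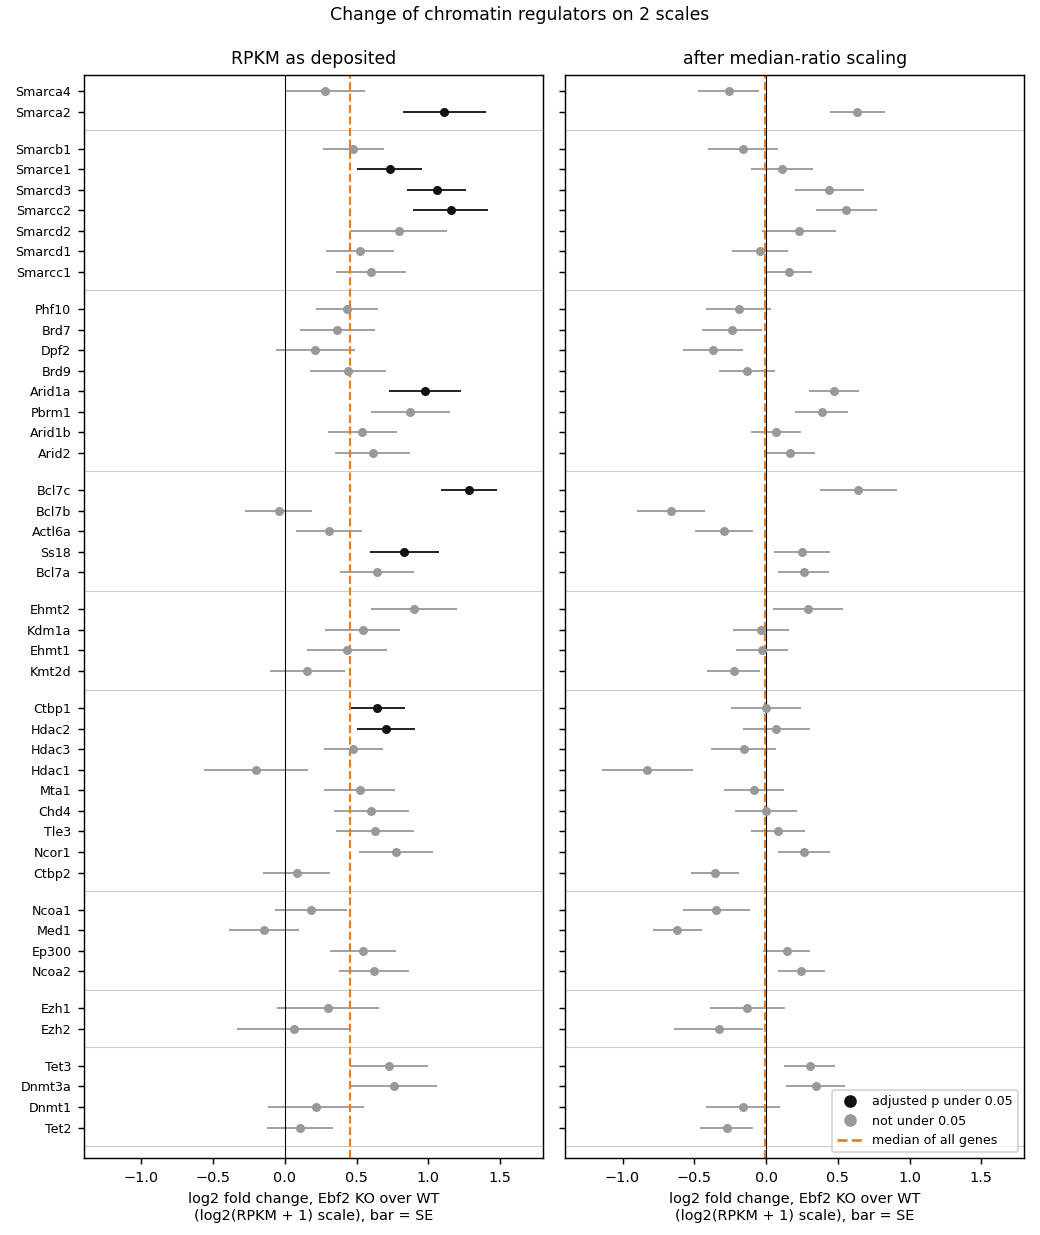
Log2 fold change of Ebf2 KO over WT for each member on RPKM as deposited (left) and after median-ratio scaling (right); points are limma estimates on the log2(RPKM + 1) scale from 2 libraries per genotype, bars are their standard errors, black marks an adjusted p under 0.05 and the dashed line is the median of all genes. The 9 black points on the left all lie above the dashed line at 0.45, and no point on the right is black. That line includes low genes, whose change the added 1 understates. The median over genes averaging at least 5 RPKM was 0.52.

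Of the ATPase genes, Smarca2 was called higher on RPKM and Smarca4 was not called. Smarca2, which encodes BRM, stood at 3.64 and 5.64 RPKM in the Ebf2 KO libraries and at 1.25 and 1.94 RPKM in the WT libraries. Both Ebf2 KO values were above both WT values, a 2.91-fold difference of means on RPKM (4.64 ± 1.41 against 1.59 ± 0.486 RPKM, SD, n = 2 each) and a 1.84-fold difference after scaling. Smarca2 rose on RPKM (log2 fold change 1.11, SE 0.291, limma adjusted p = 0.0305) and in the authors' deposited table, where edgeR gave an FDR of 0.0189 and a log2 fold change of 0.91, and had an adjusted p of 0.0666 after scaling by limma (log2 fold change 0.63, SE 0.192). The call on RPKM was lost without Ebf2 KO replicate 2 (limma adjusted p = 0.222) and without WT replicate 1 (0.0506). Smarca4, which encodes BRG1, was at 5.44 and 4.98 RPKM in the Ebf2 KO libraries and at 3.24 and 5.15 RPKM in the WT libraries, with overlapping groups. Its log2 fold change was 0.28 on RPKM (SE 0.274, limma adjusted p = 0.432) and -0.26 after scaling (SE 0.211, adjusted p = 0.442). Smarca2 made up 40.1% and 53.1% of the RPKM of both ATPases together in the Ebf2 KO libraries, against 27.8% and 27.3% in the WT libraries.

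The 250 bases before the start of each ATPase gene are shown because these genes compete for the same place in the complex and their ratio differed by over 2-fold, a choice made after the values were seen. They come from RefSeq on the GRCm38.p6 build, which is not the mm9 build of the deposited table, and are written 5′ to 3′ on the strand of the gene with CpG dinucleotides in capitals. Smarca2 is at chr19:26604910-26605159 on the plus strand and Smarca4 at chr9:21615919-21616168 on the plus strand.
Smarca2: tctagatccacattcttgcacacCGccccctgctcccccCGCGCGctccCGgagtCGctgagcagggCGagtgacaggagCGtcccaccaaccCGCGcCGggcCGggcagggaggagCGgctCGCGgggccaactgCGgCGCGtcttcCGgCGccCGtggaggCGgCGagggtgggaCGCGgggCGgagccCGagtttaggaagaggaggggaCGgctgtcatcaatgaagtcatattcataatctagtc
Smarca4: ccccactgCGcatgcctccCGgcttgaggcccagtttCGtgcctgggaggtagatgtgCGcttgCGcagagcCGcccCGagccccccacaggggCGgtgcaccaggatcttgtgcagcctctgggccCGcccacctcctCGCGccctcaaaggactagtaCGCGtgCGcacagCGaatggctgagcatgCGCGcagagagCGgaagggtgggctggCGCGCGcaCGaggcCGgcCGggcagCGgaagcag
The Smarca2 stretch held 28 CpG dinucleotides and the Smarca4 stretch 25, at a GC content of 68.4% and 70.8%. Promoters of the members were of this kind in general: 38 of the 45 had an entry, and the median CpG number over their 48 starts was 25, against 15 over the promoters of the genes in the table and 6 over all 32851 promoters. The EBF consensus is TCCC and GGGA with any 2 bases between them, and it reads the same on both strands. Within 250 bases before and 50 bases after the start it was found in 0 of the 48 promoters of members. It was found in 1.04% of the promoters of the genes in the table and in 0.904% of all promoters. At shares this low a count of 0 among 48 is likely in any case, so no conclusion on EBF sites was drawn.

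The genes grouped here as core subunits had 3 of 7 members higher on RPKM and 0 lower, and 0 called after scaling (1 and 0 at an unadjusted p under 0.05). Smarcb1 (BAF47), the subunit that contacts the nucleosome and the most abundant of the core, was at 25.5 and 22.9 RPKM in the Ebf2 KO libraries and at 15.1 and 19.2 RPKM in the WT libraries. On RPKM its groups did not overlap. Its log2 fold change of 0.48 (SE 0.215, limma adjusted p = 0.122) lay below the median of 0.52 over genes averaging at least 5 RPKM. After scaling it was -0.16 with overlapping groups. Smarcc2 (BAF170), a scaffold subunit, was at 13.5 and 14.9 RPKM in the Ebf2 KO libraries and at 4.59 and 7.37 RPKM in the WT libraries. It rose by 1.16 on the log2 scale on RPKM (SE 0.262, limma adjusted p = 0.0202), and its scaled log2 fold change was 0.56 (SE 0.213, adjusted p = 0.122). Its call was lost without Ebf2 KO replicate 2 (limma adjusted p = 0.0951). The related scaffold subunit Smarcc1 (BAF155) was at 2.62 and 2.93 RPKM in the Ebf2 KO libraries and at 1.27 and 1.74 RPKM in the WT libraries (log2 fold change 0.60 on RPKM, limma adjusted p = 0.0955, and 0.16 after scaling).

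The BAF60 subunits, which link the complex to transcription factors, are encoded by Smarcd1, Smarcd2 and Smarcd3. Smarcd3 (BAF60C) was at 17.4 and 17.5 RPKM in the Ebf2 KO libraries and at 8.20 and 7.55 RPKM in the WT libraries. The 2.22-fold difference was far larger than the spread between replicates (17.5 ± 0.0435 against 7.88 ± 0.456 RPKM, SD, n = 2 each) and passed on RPKM (limma adjusted p = 0.0135), but not without Ebf2 KO replicate 2 (0.0716) or after scaling (0.261, fold 1.38). Smarcd1 (BAF60A) had a log2 fold change of 0.52 on RPKM and -0.04 after scaling, and Smarcd2 (BAF60B), at 2.91 and 6.50 RPKM in the WT libraries, varied too much within WT for its 1.79-fold difference to pass (limma adjusted p = 0.107), and had a scaled log2 fold change of 0.23. Smarcd3 made up 54.9% and 51.9% of the BAF60 RPKM in the Ebf2 KO libraries, against 54.3% and 39.7% in the WT libraries, so WT replicate 1 was as high as the Ebf2 KO libraries. Smarce1 (BAF57), a DNA-binding HMG-box subunit, was at 16.9 and 17.2 RPKM in the Ebf2 KO libraries and at 8.51 and 11.5 RPKM in the WT libraries. Its adjusted p by limma was 0.0477 on RPKM and 0.763 after scaling. Its call on RPKM was lost without Ebf2 KO replicate 1 (limma adjusted p = 0.131), Ebf2 KO replicate 2 (0.218) or WT replicate 1 (0.157).

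Among the 8 subunits that define an assembly, 1 was higher on RPKM and 0 lower, and 0 were called after scaling (limma; 1 and 0 at an unadjusted p under 0.05). Arid1a, the large DNA-binding subunit of canonical BAF, was at 4.60 and 5.20 RPKM in the Ebf2 KO libraries and at 1.77 and 2.25 RPKM in the WT libraries. It rose 2.44-fold on RPKM (log2 fold change 0.97, SE 0.251, limma adjusted p = 0.0290) and stood 1.54-fold higher after scaling (adjusted p = 0.112). With any library but WT replicate 2 left out, the adjusted p on RPKM was between 0.0659 and 0.2002 (limma). Its paralog Arid1b was at 2.84 and 3.27 RPKM in the Ebf2 KO libraries and at 1.75 and 1.83 RPKM in the WT libraries, with a scaled log2 fold change of 0.07. Dpf2, the PHD-finger reader of acetylated histones in canonical BAF, was at 7.17 and 8.09 RPKM in the Ebf2 KO libraries and at 4.99 and 8.25 RPKM in the WT libraries. Dpf2 had a log2 fold change of 0.21 on RPKM (SE 0.277, limma adjusted p = 0.557) and -0.37 after scaling (SE 0.211, adjusted p = 0.279), where both Ebf2 KO values were below both WT values.

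The PBAF and non-canonical BAF subunits were not called on either scale. Pbrm1, the polybromo subunit that reads acetylated histones, was 2.31-fold higher on RPKM, at 3.40 and 5.09 RPKM in the Ebf2 KO libraries and 1.60 and 2.07 RPKM in the WT libraries (log2 fold change 0.87, limma adjusted p = 0.0502, and 0.39 after scaling). Arid2 had a log2 fold change of 0.61 on RPKM and 0.17 after scaling. Phf10 (BAF45A), the most abundant of these 8, was at 17.99 and 17.5 RPKM in the Ebf2 KO libraries and at 11.4 and 14.5 RPKM in the WT libraries. Phf10 thus had a log2 fold change of 0.43 on RPKM (SE 0.216, limma adjusted p = 0.152) and of -0.19 after scaling. The bromodomain subunits Brd7 of PBAF and Brd9 of non-canonical BAF had log2 fold changes of 0.36 and 0.44 on RPKM and of -0.23 and -0.13 after scaling. Across the table the scaled change also varied with gene length: the median scaled log2 fold change was -0.09 over 1082 genes of up to 1000 bases and 0.07 over 336 genes longer than 8000 bases, both with a mean of at least 1 RPKM. Arid1a, Pbrm1 and Arid2 have 8175, 8117 and 9029 bases in the gene models, and Phf10, Brd7 and Brd9 have 1636, 2370 and 2407. Arid1b and Dpf2 have 11325 and 3356, at scaled log2 fold changes of 0.07 and -0.37. Members outside this group went both ways. Dnmt3a (9947 bases, 0.35) went with the trend, and Kmt2d (19827, -0.23), Tet2 (9181, -0.27) and Bcl7c (965, 0.64) went against it, among others. The part of gene length in these differences was not tested.

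Of the 5 accessory subunits, Bcl7c and Ss18 were called higher on RPKM, 0 were called lower, and 0 were called after scaling (limma; 1 higher and 1 lower at an unadjusted p under 0.05). Bcl7c was at 37.0 and 36.5 RPKM in the Ebf2 KO libraries and at 15.3 and 13.8 RPKM in the WT libraries, so the groups lay far apart. Its mean on RPKM was 2.53-fold higher in Ebf2 KO (36.7 ± 0.390 against 14.5 ± 1.04 RPKM, SD, n = 2 each). After scaling the mean of Bcl7c was 1.57-fold higher with a wider spread (29.2 ± 3.90 against 18.5 ± 4.59, SD, n = 2 each). It rose by 1.28 on the log2 scale on RPKM (SE 0.196, limma adjusted p = 0.00662). With each library left out its log2 fold change on RPKM lay between 1.21 and 1.35. The call on RPKM was lost after scaling (log2 fold change 0.64, SE 0.268, limma adjusted p = 0.151). It was also lost in the authors' deposited table (edgeR FDR 0.0948, log2 fold change 0.68). It was lost after median centring (0.76, limma adjusted p = 0.0786) and kept with quantile normalization (0.80, limma adjusted p = 0.0461). Bcl7b was at 14.7 and 12.8 RPKM in the Ebf2 KO libraries and at 12.2 and 16.5 RPKM in the WT libraries. Bcl7b had a log2 fold change of -0.04 on RPKM (limma adjusted p = 0.889) and -0.66 after scaling (SE 0.238, adjusted p = 0.104). Bcl7c made up 69.4% and 70.4% of the RPKM of the 3 BCL7 genes in the Ebf2 KO libraries, against 54.2% and 43.8% in the WT libraries.

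The BCL7 proteins are small subunits of BAF complexes, and the 250 bases before the starts of Bcl7c and Bcl7b are shown because this pair had the largest difference in ratio of the 18 compared over all 4 libraries, a rank that it kept only when WT replicate 1 was left out. The pair was again chosen after the values were seen, with CpG dinucleotides in capitals. Bcl7c is at chr7:127708767-127709016 on the minus strand and Bcl7b at chr5:135168122-135168371 on the plus strand (RefSeq, GRCm38.p6).
Bcl7c: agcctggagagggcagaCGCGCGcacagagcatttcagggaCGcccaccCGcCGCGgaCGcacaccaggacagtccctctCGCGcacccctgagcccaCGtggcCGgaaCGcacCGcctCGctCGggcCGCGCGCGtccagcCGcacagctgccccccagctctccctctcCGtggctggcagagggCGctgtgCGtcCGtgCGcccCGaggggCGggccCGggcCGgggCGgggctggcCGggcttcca
Bcl7b: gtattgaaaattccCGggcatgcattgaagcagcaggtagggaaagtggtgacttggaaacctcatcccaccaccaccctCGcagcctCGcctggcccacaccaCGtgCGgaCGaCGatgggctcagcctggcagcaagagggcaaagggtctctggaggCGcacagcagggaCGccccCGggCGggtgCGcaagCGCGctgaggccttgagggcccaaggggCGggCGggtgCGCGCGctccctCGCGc
The Bcl7c stretch held 32 CpG dinucleotides at a GC content of 76.8%, and the Bcl7b stretch 21 at 67.6%. Ss18, the subunit fused to SSX in synovial sarcoma, was at 8.16 and 10.3 RPKM in the Ebf2 KO libraries and at 4.37 and 5.11 RPKM in the WT libraries. Its adjusted p by limma was 0.0404 on RPKM and 0.421 after scaling. The call on RPKM was lost without Ebf2 KO replicate 1 (limma adjusted p = 0.0786), Ebf2 KO replicate 2 (0.295) or WT replicate 1 (0.0787). Actl6a (BAF53A), the actin-related subunit, and Bcl7a had log2 fold changes of 0.31 and 0.64 on RPKM and of -0.29 and 0.26 after scaling.

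The histone methylation enzymes had 0 of 4 members called on either scale by limma and 0 in the authors' deposited table, with 1 higher on RPKM and 0 after scaling at an unadjusted p under 0.05. Ehmt1 (GLP), an H3K9 methyltransferase needed for brown fat identity in mice, was at 2.15 and 3.40 RPKM in the Ebf2 KO libraries and at 1.45 and 2.11 RPKM in the WT libraries. Its log2 fold change was 0.43 on RPKM (SE 0.279, limma adjusted p = 0.250), close to that of the bulk of the genes, and -0.03 after scaling (SE 0.181, adjusted p = 0.935). Its partner Ehmt2 (G9a) was at 14.98 and 17.8 RPKM in the Ebf2 KO libraries and at 6.01 and 11.3 RPKM in the WT libraries. The log2 fold change was 0.90 on RPKM (SE 0.299, limma adjusted p = 0.0574) and 0.29 after scaling. With each library left out the log2 fold change of Ehmt2 on RPKM lay between 0.49 and 1.31. Kdm1a (LSD1), which removes methyl groups from H3K4, was at 7.06 and 9.13 RPKM in the Ebf2 KO libraries and at 4.41 and 6.13 RPKM in the WT libraries. Kdm1a had a log2 fold change of 0.54 on RPKM (SE 0.261, limma adjusted p = 0.141) and of -0.03 after scaling. Kmt2d (MLL4), an H3K4 methyltransferase of enhancers, had a log2 fold change of 0.16 on RPKM and -0.23 after scaling.

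Of the 9 deacetylases and corepressors, 2 were higher and 0 lower on RPKM, and 0 were called after scaling (0 and 1 at an unadjusted p under 0.05). Ctbp1, the most abundant member of all, was at 33.5 and 32.7 RPKM in the Ebf2 KO libraries and at 19.6 and 22.2 RPKM in the WT libraries. Its log2 fold change was 0.64 on RPKM (SE 0.196, limma adjusted p = 0.0460) and -0.001 after scaling (SE 0.246, adjusted p = 0.998). Hdac2, a deacetylase of the NuRD and CoREST complexes, was at 23.7 and 27.3 RPKM in the Ebf2 KO libraries and at 14.9 and 15.5 RPKM in the WT libraries. Its adjusted p by limma was 0.0385 on RPKM and 0.867 after scaling. Both calls on RPKM were lost with any library but WT replicate 2 left out (limma adjusted p between 0.0519 and 0.258).

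Hdac1, the paralog of Hdac2 in the same complexes, was the member with the lowest scaled log2 fold change. It stood at 9.22 and 21.4 RPKM in the Ebf2 KO libraries and at 14.5 and 18.4 RPKM in the WT libraries, so Ebf2 KO replicate 1 alone was low and Ebf2 KO replicate 2 was the highest of all on RPKM. After scaling both Ebf2 KO values lay below both WT values, with a log2 fold change of -0.83 (SE 0.315, limma adjusted p = 0.123). Hdac3, the catalytic partner of NCoR, was at 21.54 and 21.55 RPKM in the Ebf2 KO libraries and at 13.96 and 16.5 RPKM in the WT libraries, with a scaled log2 fold change of -0.16. Ncor1 itself was at 3.96 and 5.15 RPKM in the Ebf2 KO libraries and at 2.09 and 2.38 RPKM in the WT libraries (log2 fold change 0.77, SE 0.256, limma adjusted p = 0.0569 on RPKM and 0.358 after scaling). Tle3, a corepressor that counters PRDM16 in fat cells, was at 5.35 and 6.84 RPKM in the Ebf2 KO libraries and at 2.92 and 4.30 RPKM in the WT libraries. Its log2 fold change was 0.63 on RPKM (SE 0.272, limma adjusted p = 0.110) and 0.08 after scaling. Chd4 and Mta1, the remodeller and a scaffold of NuRD, had log2 fold changes of 0.60 and 0.52 on RPKM and of -0.002 and -0.09 after scaling. Ctbp2 had a log2 fold change of 0.08 on RPKM and -0.36 after scaling.

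Of the 4 coactivators measured, 0 were called on RPKM or after median-ratio scaling by limma (2 higher on RPKM and 1 lower after scaling at an unadjusted p under 0.05), and 1 was lower in the authors' deposited table. That gene was Med1, the Mediator subunit that nuclear receptors bind. Med1 was at 1.96 and 2.45 RPKM in the Ebf2 KO libraries and at 2.42 and 2.66 RPKM in the WT libraries, so its groups overlapped on RPKM (log2 fold change -0.15, SE 0.245, limma adjusted p = 0.648). After scaling its values were 1.69 and 1.78 in the Ebf2 KO libraries and 3.45 and 2.96 in the WT libraries, 1.85-fold higher in WT, with an adjusted p of 0.0530 (limma; log2 fold change -0.62, SE 0.172). It was lower in the authors' deposited table (edgeR FDR 0.0180 at a log2 fold change of -0.86). Med1 was 1 of the 3 members with a negative log2 fold change on RPKM, beside Bcl7b and Hdac1. It was also called lower by limma after median centring (log2 fold change -0.67, adjusted p = 0.0323) and quantile normalization (-0.65, 0.0483). With each library left out its scaled log2 fold change lay between -0.70 and -0.53. Ncoa1 (SRC1), the most abundant coactivator measured, was at 3.89 and 3.99 RPKM in the Ebf2 KO libraries and at 3.73 and 3.01 RPKM in the WT libraries. Ncoa1 had a log2 fold change of 0.18 on RPKM and of -0.35 after scaling. Its relative Ncoa2 (TIF2) was at 1.46 and 2.38 RPKM in the Ebf2 KO libraries and at 0.752 and 1.003 RPKM in the WT libraries. The log2 fold change was 0.62 on RPKM (SE 0.244, limma adjusted p = 0.0869) and 0.25 after scaling. Ep300, which encodes the acetyltransferase p300, had a log2 fold change of 0.54 on RPKM and 0.14 after scaling.

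The Polycomb methyltransferases separated the libraries by replicate number and not by genotype. Ezh2, the H3K27 methyltransferase of dividing cells, was at 0.841 and 2.76 RPKM in Ebf2 KO replicates 1 and 2 and at 0.905 and 2.33 RPKM in WT replicates 1 and 2. Ezh1, its paralog of resting cells, was at 1.59 and 3.27 RPKM in Ebf2 KO replicates 1 and 2 and at 1.07 and 2.53 RPKM in WT replicates 1 and 2. On RPKM the library numbered 2 was the higher in each genotype, by 3.28-fold and 2.57-fold for Ezh2 and by 2.05-fold and 2.37-fold for Ezh1. These were the 2 of 45 members at least 2-fold higher in both on RPKM, where 2.42% of all genes were. After scaling the log2 ratios of replicate 2 to replicate 1 in Ebf2 KO and WT were 1.46 and 0.998 for Ezh2. They were 0.783 and 0.879 for Ezh1. Replicate 2 thus stayed higher, but neither Ezh2 nor Ezh1 was at least 2-fold higher in both genotypes after scaling. Their log2 fold changes between genotypes were 0.06 (SE 0.399) and 0.30 (SE 0.355) on RPKM and did not pass (limma adjusted p = 0.906 and 0.516). The maintenance DNA methyltransferase Dnmt1, which is abundant in dividing cells, was at 1.25 and 2.20 RPKM in Ebf2 KO replicates 1 and 2 and at 0.709 and 2.12 RPKM in WT replicates 1 and 2.

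On RPKM all 8 markers of dividing cells on a fixed list were higher in the library numbered 2 of each genotype. Of these, 5 were at least 2-fold higher in both. After scaling Pcna was lower in WT replicate 2 than in WT replicate 1 (17.8 against 19.2). The other markers of the 8 stayed higher in replicate 2 of both genotypes. Being higher in replicate 2 in both genotypes was common on RPKM: 36 of 45 members and 60.1% of all genes were. So were 8 of 8 fibroblast and precursor markers and 6 of 8 markers each of skeletal muscle and of macrophages. The same held for 5 of 6 neuron and Schwann cell markers and 3 of 3 lymphocyte markers. It held for only 4 of 8 endothelial, 2 of 8 adipocyte and 1 of 8 brown fat markers. At least 2-fold in both genotypes were 3 of 6 neuron and Schwann cell markers, 1 of 8 fibroblast and precursor markers, 1 of 8 skeletal muscle markers and 0 of 8 macrophage markers. The summed level of the dividing-cell markers was 34.0 and 60.4 RPKM in Ebf2 KO replicates 1 and 2 and 22.5 and 47.5 RPKM in WT replicates 1 and 2, and 0 of 8 were called between genotypes on RPKM or after scaling by limma or in the authors' deposited table (1 higher on RPKM and 0 after scaling at an unadjusted p under 0.05). Mki67, the marker protein Ki-67, was at 0.591 and 2.58 RPKM in Ebf2 KO replicates 1 and 2 and at 0.466 and 2.69 RPKM in WT replicates 1 and 2. None of these 8 markers was at 0 in a library. The part of dividing cells in the levels of Ezh2, Ezh1 and Dnmt1 was not tested, and the labels do not say what the replicate numbers share.

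**Figure D3:**
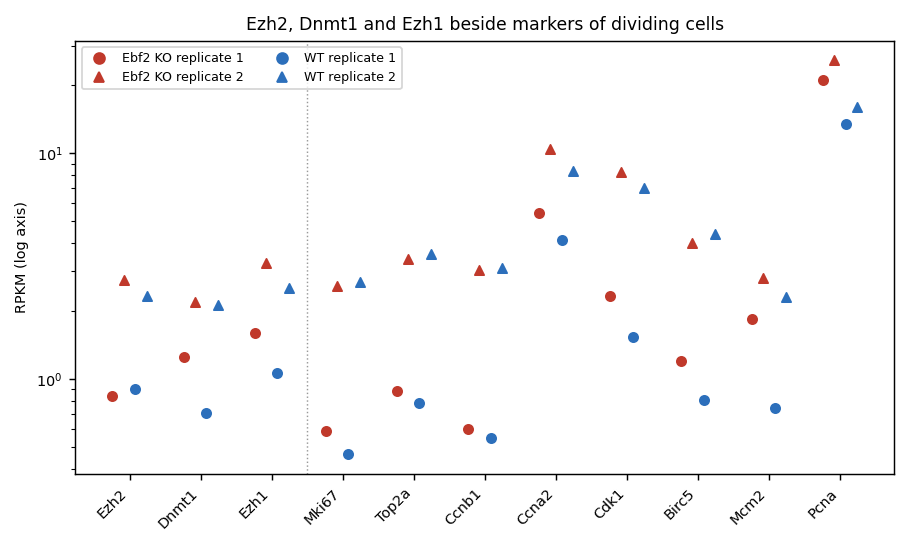
RPKM, on a log axis, of Ezh2, Dnmt1 and Ezh1 (left of the dotted line) and of 8 markers of dividing cells in each library; red is Ebf2 KO, blue is WT, circles are replicate 1 and triangles replicate 2. For each gene both triangles lie above both circles except where Ebf2 KO replicate 1 exceeds WT replicate 2 (Pcna, at 21.2 against 16.1 RPKM), as for Ezh2 at 2.76 and 2.33 RPKM against 0.841 and 0.905 RPKM.

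The DNA methylation enzymes had 0 of 4 members called on either scale by limma and 0 in the authors' deposited table, with 2 higher on RPKM and 0 after scaling at an unadjusted p under 0.05. Dnmt3a, which sets new methylation marks, was at 1.92 and 3.51 RPKM in the Ebf2 KO libraries and at 0.840 and 1.49 RPKM in the WT libraries. The log2 fold change was 0.76 on RPKM (SE 0.298, limma adjusted p = 0.0869) and 0.35 after scaling. Tet3, which oxidises methylcytosine, was at 2.22 and 3.18 RPKM in the Ebf2 KO libraries and at 0.911 and 1.58 RPKM in the WT libraries. The log2 fold change was 0.72 on RPKM (SE 0.270, limma adjusted p = 0.0771) and 0.30 after scaling. With each library left out the log2 fold change on RPKM lay between 0.45 and 1.08 for Dnmt3a and between 0.51 and 0.94 for Tet3. Tet2 was at 1.002 and 1.68 RPKM in the Ebf2 KO libraries and at 1.24 and 1.07 RPKM in the WT libraries, so its groups overlapped.

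Ratios of related members within a library do not depend on how the libraries are scaled, and 18 of 20 fixed pairs could be formed. With 2 libraries against 2, an exact permutation test cannot give a 2-sided p under 0.333, so the ratios are described and not called. The Bcl7c to Bcl7b ratio was 2.51 and 2.86 in the Ebf2 KO libraries and 1.25 and 0.838 in the WT libraries, a 2.61-fold difference. The Smarca2 to Smarca4 ratio was 0.670 and 1.13 in the Ebf2 KO libraries and 0.386 and 0.376 in the WT libraries, a 2.29-fold difference in which the Ebf2 KO libraries differed from each other far more than the WT libraries did. In Ebf2 KO replicate 2 the Smarca2 level was thus above that of Smarca4, whereas in the other 3 libraries it was below.

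The Bcl7a to Bcl7b ratio was 0.108 and 0.199 in the Ebf2 KO libraries and 0.0575 and 0.0741 in the WT libraries, a 2.25-fold difference, so that Bcl7b had the lower share against both of its paralogs in Ebf2 KO. The log2 difference of the ratio lay between 1.09 and 1.68 for Bcl7c to Bcl7b, between 0.81 and 1.57 for Smarca2 to Smarca4 and between 0.73 and 1.61 for Bcl7a to Bcl7b with each library left out, and the order of the pairs changed with the library.

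The other pairs were less than 2-fold apart. Hdac2 to Hdac1 was 2.57 and 1.27 in the Ebf2 KO libraries and 1.02 and 0.842 in the WT libraries. Arid1b to Arid1a was 0.618 and 0.629 in the Ebf2 KO libraries and 0.989 and 0.813 in the WT libraries, 0.695 times the WT ratio. Smarcc2 to Smarcc1 was 5.17 and 5.09 in the Ebf2 KO libraries and 3.62 and 4.24 in the WT libraries, so this pair differed little but with hardly any spread within Ebf2 KO. The groups did not overlap in 14 of 18 pairs (77.8%), beside 63.7% of all pairs of genes in the table, and they were at least 2-fold apart as well in 3 (16.7%), beside 36.4% of all pairs. The limit of 2-fold was chosen after the values were seen, and related genes are not a sample of all pairs.

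**Figure D4:**
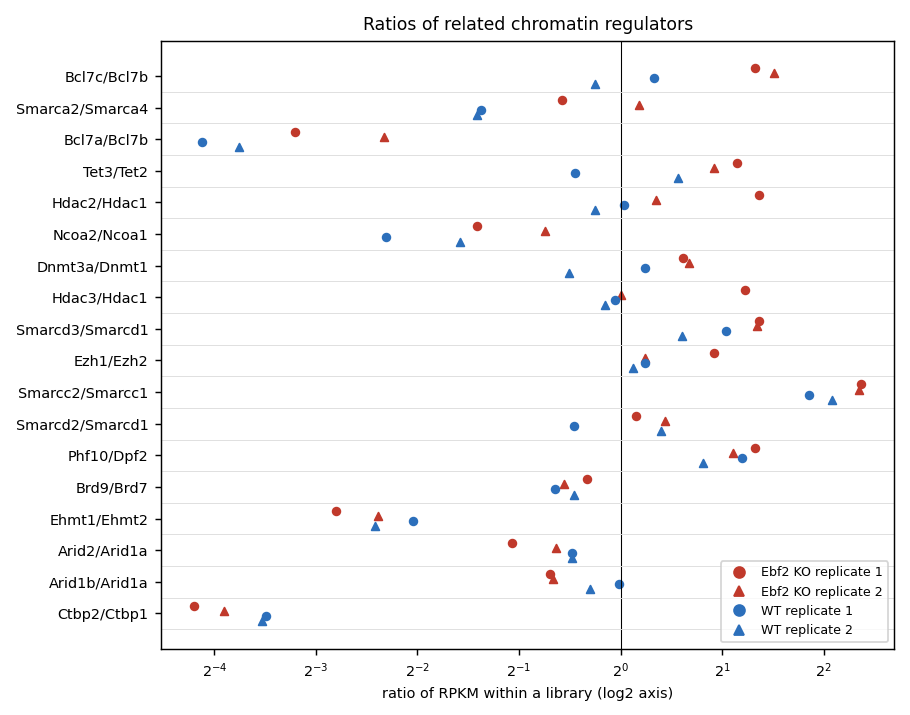
Ratio of RPKM of 2 related members within each library, on a log2 axis, for 18 pairs sorted by the difference between genotypes; red is Ebf2 KO, blue is WT, circles are replicate 1 and triangles replicate 2. Bcl7c to Bcl7b, at 2.51 and 2.86 against 1.25 and 0.838, and Smarca2 to Smarca4, at 0.670 and 1.13 against 0.386 and 0.376, head the list, and Ctbp2 to Ctbp1 is lowest relative to WT.

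Other subunits of the same complexes, and their close partners, were counted in the same way. Of 110 such genes on a fixed list, 97 were measured, among them Ebf2 itself. On RPKM 12 (12.4%, beside 24.4% of all genes) were higher and 1 (Ebf2, beside 3.54% of all genes) lower by limma. After scaling 0 were higher and 4 lower (limma), beside 7.72% and 7.58% of all genes. The 4 were Ebf2, Kdm5c, Med12 and Gatad2b. At an unadjusted p under 0.05, 2 were higher and 10 lower after scaling. The authors' deposited table had 1 higher and 6 lower at an FDR under 0.05, beside 10.9% and 10.5% of all genes. The median scaled log2 fold change of the 97 was -0.07. The BAF relatives Dpf1, Dpf3, Actl6b, Smarca1, Bcl11a and Bcl11b were not analysed here. Kdm5c, an X-linked H3K4 demethylase, was at 1.90 and 1.75 RPKM in the Ebf2 KO libraries and at 2.16 and 3.57 RPKM in the WT libraries. Its scaled log2 fold change was -0.88 (SE 0.189, limma adjusted p = 0.0257), a call lost without Ebf2 KO replicate 1 (0.0656), Ebf2 KO replicate 2 (0.184) or WT replicate 2 (0.0509), while the log2 fold change stayed between -1.02 and -0.74 with each library left out. In the authors' deposited table Kdm5c was lower, with a log2 fold change of -1.25 and an edgeR FDR of 0.000465. Kdm5c is known to be transcribed also from the inactive X chromosome, and Xist, as given above, was near 0 in Ebf2 KO replicate 2. The part of this difference between libraries was not tested.

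Mediator was the complex with most other subunits measured, 30 of 30. On RPKM 3 of 30 were higher (24.4% of all genes) and 0 lower, and after scaling 0 were higher and 1 lower (7.58% of all genes; limma, with 0 and 4 at an unadjusted p under 0.05). Their median scaled log2 fold change was -0.13, and after scaling the groups did not overlap in 14 with Ebf2 KO lower (46.7%, beside 31% of all genes) and in 3 with Ebf2 KO higher. The X-linked kinase-module subunit Med12 was at 2.20 and 2.62 RPKM in the Ebf2 KO libraries and at 2.39 and 3.47 RPKM in the WT libraries. Its scaled log2 fold change was -0.67 (SE 0.172, limma adjusted p = 0.0421), and the call was lost with each library left out (limma adjusted p between 0.0670 and 0.244). Of the 30, Med12, Med7 and Med16 were lower in the authors' deposited table at an FDR under 0.05, beside 10.5% of all genes (log2 fold changes -0.91, -0.90 and -0.85, edgeR FDR 0.0109, 0.0271 and 0.0238). Gatad2b, a NuRD subunit, was at 0.264 and 0.377 RPKM in the Ebf2 KO libraries and at 0.578 and 0.669 RPKM in the WT libraries (scaled log2 fold change -0.51, SE 0.127, limma adjusted p = 0.0389), and this call too was lost with each library left out (limma adjusted p between 0.0541 and 0.195). Kat2b, the acetyltransferase PCAF, was at 5.93 and 7.28 RPKM in the Ebf2 KO libraries and at 2.21 and 2.42 RPKM in the WT libraries. It was higher on RPKM (log2 fold change 1.19, limma adjusted p = 0.0161) and in the authors' deposited table, where edgeR gave an FDR of 0.0161 and a log2 fold change of 0.86, though not after scaling (adjusted p = 0.0526).

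Summed marker RNA of several cell types differed between the genotypes. Skeletal muscle markers summed to 9544 and 10427 RPKM in the Ebf2 KO libraries, against 1016 and 2606 RPKM in the WT libraries. Of the 8 muscle markers, 6 were higher on RPKM and 3 after scaling (limma). Fibroblast and precursor markers summed to 1219 and 2208 RPKM in the Ebf2 KO libraries, against 229.5 and 502.8 RPKM in the WT libraries. All 8 of these were higher on RPKM and 4 after scaling (limma). Macrophage markers summed to 243.7 and 221.4 RPKM in the Ebf2 KO libraries, against 43.5 and 94.2 RPKM in the WT libraries. Of the 8 macrophage markers, 6 were higher on both scales (limma). Endothelial markers summed to 284.0 and 302.7 RPKM in the Ebf2 KO libraries, against 230.6 and 335.0 RPKM in the WT libraries. Of these, 0 were called on either scale (limma; 1 higher on RPKM and 1 lower after scaling at an unadjusted p under 0.05). Adipocyte markers summed to 39134 and 32819 RPKM in the Ebf2 KO libraries, against 19902 and 14322 RPKM in the WT libraries, with 5 of 8 higher on RPKM. After scaling 1 of the adipocyte markers was higher and 1 lower (limma), and their sums overlapped, at 33808 and 23815 in the Ebf2 KO libraries and 28403 and 15891 in the WT libraries. The 6 measured markers of neurons and Schwann cells, of which 3 were higher and 2 lower on RPKM and 1 was higher and 2 lower after scaling (limma), summed to 72.8 and 177.5 RPKM in the Ebf2 KO libraries and to 31.1 and 66.4 RPKM in the WT libraries. The 3 measured lymphocyte markers summed to 2.37 and 2.95 RPKM in the Ebf2 KO libraries and to 0.578 and 2.05 RPKM in the WT libraries. Of these, 0 were called on either scale (limma; 1 higher on RPKM at an unadjusted p under 0.05). None of the measured markers was at 0 in a library. SMARCD3 is known for its role in heart and skeletal muscle, so the muscle values stand beside the 17.4 and 17.5 RPKM of Smarcd3 in the Ebf2 KO libraries and its 8.20 and 7.55 RPKM in the WT libraries. The part of these cells in the levels of the members was not tested.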

How the data were processed

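Per the labels, polyadenylated RNA of brown adipose tissue was sequenced after an Illumina TruSeq preparation. STAR, edgeR and mm9 are named by the authors in the submitters' processing notes. No version, counting tool, annotation or strand use is given in the sources used here, so reads of overlapping or antisense genes cannot be told apart. The authors deposited RPKM per library and the mean RPKM per genotype, per the file headers. For each gene the authors also deposited a log2 fold change, the mean log2 CPM, the FDR and its p-value.

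Library totals and gene lengths were recovered from the steps of the RPKM values with 158 microRNA genes of known length, after which all 12165 genes gave whole reads within 0.0001 reads. Every listed gene reached 0.502 RPKM or more in a library. The listed genes held 59.0% and 61.7% of the total in Ebf2 KO and 43.2% and 45.4% in WT.

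Genotype was the 1 term of a fit by limma 3.58.1 in R 4.3.3 to log2(RPKM + 1) of the 4 libraries, with the variance trend on, and again after median-ratio scaling (factors 0.864 and 0.726 for Ebf2 KO, 1.43 and 1.11 for WT). P-values were adjusted over all genes by the Benjamini-Hochberg method at 0.05. Alternatives were median centring, quantile normalization, no trend, a pseudocount of 0.1, genes averaging at least 5 RPKM, a replicate block, each library left out, a threshold of 0.01 and the authors' deposited values. Members, lists, pairs, tests and alternatives were chosen with earlier results of these data known. By the fixed rule, members given in full were those past the threshold on both scales, of which there were 0. The rule also took 6 with known roles in brown fat, and the most abundant and most changed of each role. Members past the threshold on RPKM alone were given in full as well. Hdac1, Ezh2, Dnmt1, Pbrm1 and other genes beyond this rule were added after their values were seen. Promoters were taken from RefSeq, GRCm38.p6.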

Additional observations from a re-analysis of the deposited data

How the results depend on the processing

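The limits lie in 2 libraries per genotype and in a shift of most genes on RPKM. Counts without a library also follow the weight of the pooled variance, as given above. Without each library in turn, the BAF subunits higher on RPKM numbered between 1 and 11 and the other regulators higher between 0 and 9, with 0 lower in both. All genes higher numbered between 810 and 4477 and lower between 166 and 561. After median-ratio scaling these ranges were 0 to 0 for BAF subunits in both directions, 0 to 0 higher and 0 to 1 lower for the other regulators, and 308 to 1048 higher and 218 to 1060 lower for all genes.

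Scaling ended most calls. The BAF subunits higher, other regulators higher and other regulators lower were 0, 0 and 0 after median-ratio scaling (all genes 939 higher and 922 lower), 0, 0 and 1 (Med1) after median centring (1024 and 1253), 1 (Bcl7c), 0 and 1 (Med1) with quantile normalization (1048 and 1010), and 1 (Smarca2), 0 and 1 (Med1) in the authors' deposited values (1325 and 1277). On RPKM with an adjusted p under 0.01 they were 1, 0 and 0 (565 and 145). With a pseudocount of 0.1 on RPKM they were 6, 1 and 0 (2781 and 416). A minimum mean of 5 RPKM left 5476 genes to test, of which 1717 were higher, against 2971 of 12165 without it. In that fit 14 BAF subunits and 8 other regulators were tested, and 5 BAF subunits and 2 other regulators were higher. Smarca2 and Arid1a averaged under the minimum and were not tested.

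The log2 fold change of Smarca4 was -0.26 with median-ratio scaling, -0.24 with centring, -0.26 with quantile normalization and -0.29 as the authors deposited it. In the same order it was -0.16, -0.0474, -0.0321 and -0.13 for Smarcb1, -0.37, -0.31, -0.32 and -0.41 for Dpf2, -0.19, -0.0904, -0.0816 and -0.17 for Phf10, -0.0273, -0.0950, -0.0613 and -0.00285 for Ehmt1, -0.35, -0.34, -0.34 and -0.44 for Ncoa1, and -0.13, -0.22, -0.18 and -0.18 for Ezh1. Kdm1a was at -0.0349 with median-ratio scaling, -0.000864 with quantile normalization and -0.0127 as the authors deposited it, and Ctbp1 at -0.00131 with median-ratio scaling. These are relative to a median of all genes near 0, which the scaling sets by construction. With each library left out on RPKM, Dpf2 ranged between -0.10 (without WT replicate 1) and 0.53, and Ezh1 between -0.0845 (without WT replicate 1) and 0.69; Ezh1 was at -0.0581 without Ebf2 KO replicate 2.

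The labels give both genotypes replicate numbers 1 and 2 without saying what a number shares, and the deviations of same-numbered libraries correlated at r = 0.348 across 12165 genes, which are not independent replicates. With the replicate block on RPKM, 14 BAF subunits and 13 other regulators were higher (all genes 6325 higher and 746 lower). With the replicate block after median-ratio scaling, 2 BAF subunits were higher and 1 lower, 2 other regulators were lower, and 1852 genes were higher and 1758 lower.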
